A study of Mus musculus with 2 samples.

Results

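The protein tyrosine phosphatases that act in T cells were examined in sorted mouse CD4+ T cells, over 10 genes: Ptprc, Ptprj, Ptprcap, Ptpn6, Ptpn11, Ptpn1, Ptpn2, Ptpn22, Ptpn7 and Ptpn4. A probe set, a group of short probes that reads 1 transcript region, was taken where the platform annotation paired it with exactly 1 of these symbols. This gave 21 of the 45101 probe sets on the array, for 9 of the 10 genes. No probe set was paired with Ptpn7, which was not analysed here. Probe sets were taken by gene name and not by a measured value, but the genes were chosen with earlier results of these data known.

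The cells came from DEREG mice, which carry a transgene for green fluorescent protein (GFP) controlled by the promoter of Foxp3. Foxp3 is the transcription factor of regulatory T cells, so GFP marks those cells as far as the transgene follows the gene. CD4+ T cells were enriched by removing other cells and then sorted into a GFP-positive FoxP3+ and a GFP-negative FoxP3neg population, with a stated purity above 99%, and both carry the same transgene. The design holds 2 Affymetrix Mouse Genome 430 arrays, 1 for each population. No label states the organ, the animals' age or number, or a treatment.

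Tyrosine kinases of the Src, Syk and JAK families start signals from the T cell receptor and from cytokine receptors, and tyrosine phosphatases remove the phosphate groups again. CD45, the product of Ptprc, keeps Src family kinases ready to act by removing an inhibitory phosphate, whereas SHP-1, PTPN22 and TC-PTP mostly restrain signalling. Several of these genes are known for autoimmune or inflammatory disease when they are lost or altered in mice or humans.

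There was 1 array per population, so no test could be run, and each difference is between these 2 arrays. Signals are the authors' MAS5 intensities on a linear scale, and each difference is the log2 signal of GFP-positive cells minus that of GFP-negative cells. A floor of 60.94, the 90th percentile of the signals of genes restricted to other tissues, stands in for detection calls, and a probe set below it on both arrays gets no fold. As a yardstick, the differences of probe sets of 1 gene scattered with a standard deviation of 0.40 log2 (8226 probe sets from 3229 genes, all with both signals over the floor), and this leaves out how animals, sorts and hybridisations vary. In bulk populations, fewer cells of a kind and less RNA per cell cannot be told apart.

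The labels were checked by marker genes. Foxp3 gave 504.4 in GFP-positive cells against 173.2 in GFP-negative cells, 2.91-fold higher, and all 7 regulatory T cell markers were past 1.5-fold on the GFP-positive side. All 7, Foxp3 included, were above the floor of 60.94 on the GFP-negative array too. The source of that signal was not tested. All 9 CD4 T cell markers were above the floor on both arrays, and 3 of them were past 1.5-fold, all lower in GFP-positive cells: Cd4 (1.62-fold), Cd3e (1.59-fold) and Cd28 (1.53-fold). Of all genes above the floor, by their brightest probe sets, 16.9% were past 1.5-fold. Of the B cell markers, 7 of 11 measured were below the floor on both arrays, among them Pax5 and Cd79a. The summed signal of the 11 was 2638 in GFP-positive cells against 5150 in GFP-negative cells, mostly from the brightest Ighm probe set, while 5 of the 7 other Ighm probe sets above the floor were higher in GFP-positive cells. In GFP-positive cells Ighm, Cd22 and Cd74 were lower and Cd79b 3.13-fold higher, and the median of the list, −1.02 log2, was 0.56 with probe sets averaged. Of 12 myeloid and dendritic markers 7 were below the floor, and the other 5, of which 4 were higher and Fcgr3 lower in GFP-positive cells, summed to 341.2 for GFP-positive against 295.3 for GFP-negative cells. All 12 summed to 431.5 for GFP-positive against 497.9 for GFP-negative cells, and markers of CD8 T and NK cells to 1488 for GFP-positive against 1207 for GFP-negative cells, mostly from Gzma. CD45 and SHP-1 are made by these cells too, and the part of such cells in the values below was not tested. The ratio of 3′ to 5′ probe set signals, a measure of RNA integrity that goes up with degradation or incomplete copying, was 5.30 in GFP-positive cells against 3.57 in GFP-negative cells for Actb, and 9.27 in GFP-positive cells against 6.24 in GFP-negative cells for Gapdh.

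The phosphatase genes differed little between the populations, and Ptpn11 was the gene whose probe sets agreed on a difference past 1.5-fold. Ptpn11, which encodes SHP-2, was about as much lower in GFP-positive cells on each of its 2 probe sets above the floor, by 1.69-fold and 1.67-fold. Ptprc and Ptpn6 each had 1 probe set higher and 1 lower in GFP-positive cells. Ptpn1, Ptpn2 and the brighter Ptpn4 probe set were lower and Ptpn22 and Ptprcap higher by less than 1.5-fold. The other Ptpn4 probe set was lower too, but gave only a lower bound, and Ptprj was below the floor throughout. Of the 21 probe sets 15 were above the floor on at least 1 array, 14 of them on both, and 6 on neither. Of these 15, 4 were higher and 11 lower in GFP-positive cells, with a median difference of −0.19 log2. Of all 21347 probe sets with a signal over the floor 51.9% were higher, 48% were lower and the median was 0.02. Several of the 15 read the same gene. With each gene at its brightest probe set, 3 were higher and 5 lower among 8 genes, with a median of −0.15 log2. Of all 10452 genes above the floor, 5108 were higher and 5341 lower.

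Among the 15 probe sets, 3 were past 1.5-fold, 1 higher and 2 lower in GFP-positive cells, which is 20% of them. Over all probe sets above the floor on at least 1 array the share past 1.5-fold was 19.2%, with 10.8% higher and 8.38% lower, so the share of the phosphatases was near that of the array. None was past 2-fold, against 4.02% of all. The plot of signals by gene shows both values of every probe set.

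**Figure D1:**
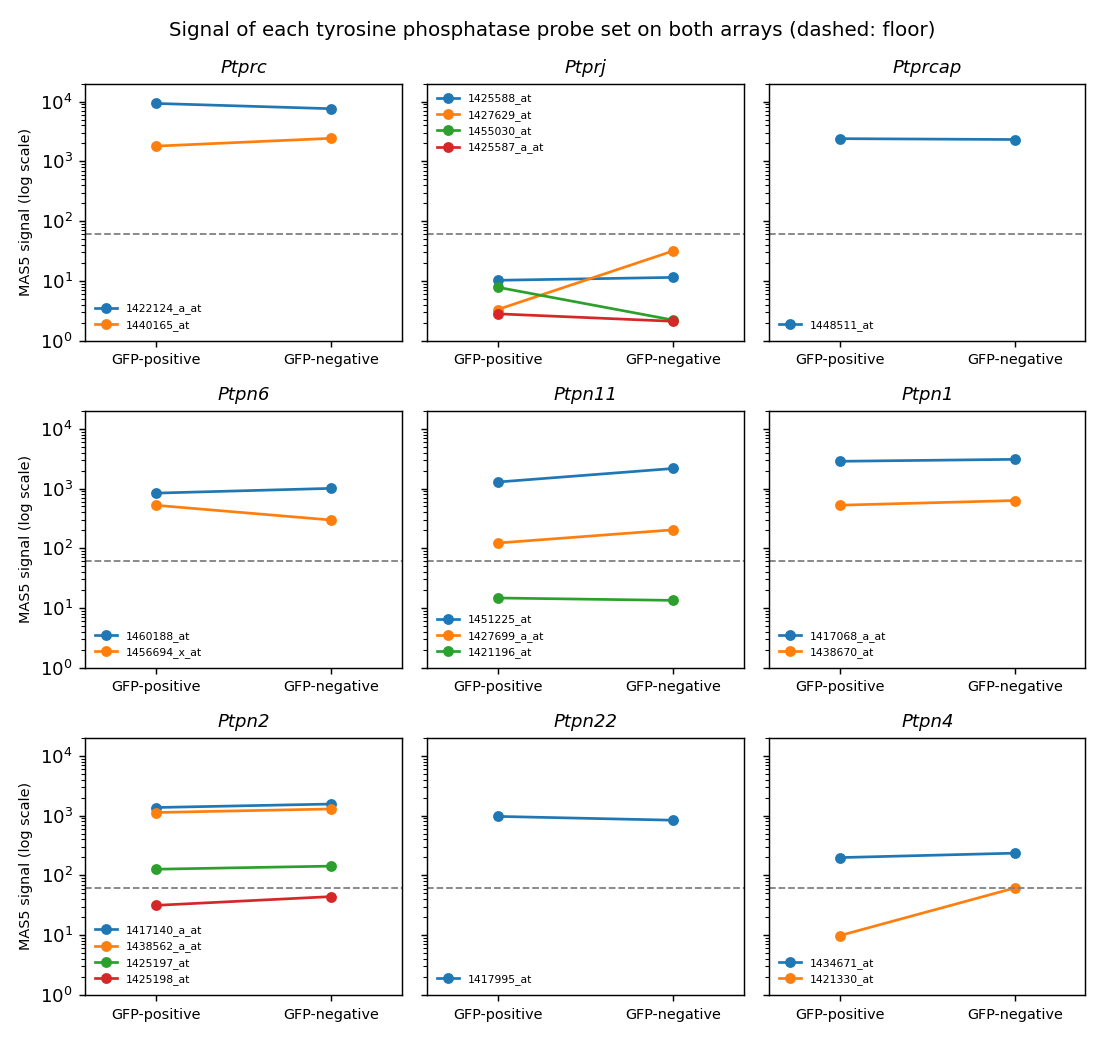
MAS5 signal (log axis) of the 21 probe sets of 9 phosphatase genes in GFP-positive cells (left) and GFP-negative cells (right), 1 line per probe set and 1 array per population, with the floor of 60.94 dashed. The 2 lines of Ptprc, and those of Ptpn6, slope in opposite directions, both upper lines of Ptpn11 are lower in GFP-positive cells, and all 4 Ptprj probe sets lie below the floor.

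Ptprc encodes CD45, the abundant receptor type phosphatase of all white blood cells, whose extracellular part is spliced in several forms. Its probe set 1422124_a_at gave 9329 in GFP-positive cells against 7606 in GFP-negative cells, a difference of 0.29 log2 or 1.23-fold higher. Its probe set 1440165_at went the other way, with 1798 in GFP-positive cells against 2431 in GFP-negative cells, a difference of −0.44 log2 or 1.35-fold lower. The direction of Ptprc therefore depends on the probe set. The suffix _a_at marks a probe set that can read several transcripts of the same gene. Where in the transcript each probe set lies was not analysed here, so neither could be tied to an exon or a CD45 form. With both averaged, the Ptprc difference was −0.07 log2.

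The 2 Ptprc probe sets lay 0.73 log2 apart. Of the 3229 genes with several probe sets above the floor on both arrays, 27.4% had a gap at least that wide, and 55.2% had probe sets of both signs. A gap runs from the lowest to the highest probe set of a gene, so more probe sets tend to widen it. Here and below, the genes compared were not matched for the number of probe sets. Bright probe sets scatter less. Among the 280 genes with several probe sets of a geometric mean signal of at least 1000, 11 genes, or 3.93%, had a gap as wide as that of Ptprc, Ptprc included, and the median gap was 0.22 log2. The part of the higher 3′ to 5′ ratio of the GFP-positive array in this disagreement was not tested.

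Ptprcap encodes a small membrane protein that binds CD45 and has no phosphatase activity of its own. Its single probe set, 1448511_at, gave 2398 in GFP-positive cells against 2320 in GFP-negative cells, a difference of 0.05 log2 that is well inside the scatter between probe sets. The partner of CD45 was thus measured at nearly the same signal in both populations.

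Ptprj encodes CD148, a receptor type phosphatase that acts on Src family kinases in several blood cell types. Its 4 probe sets gave 10.2, 3.3, 7.8 and 2.8 in GFP-positive and 11.4, 31.7, 2.2 and 2.1 in GFP-negative cells, in the order 1425588_at, 1427629_at, 1455030_at and 1425587_a_at. All 8 signals were under the floor, so Ptprj was not measurable above background on these arrays and no fold is given.

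Ptpn6 and Ptpn11 encode SHP-1 and SHP-2, the cytosolic phosphatases with paired SH2 domains. SHP-1 is recruited by inhibitory receptors and dampens receptor signals, and SHP-2 also supports signalling from growth factor and cytokine receptors to the RAS pathway. For Ptpn11 the probe set 1451225_at gave 1284 in GFP-positive cells against 2165 in GFP-negative cells, a difference of −0.75 log2. The dimmer probe set 1427699_a_at gave 122.2 in GFP-positive cells against 203.6 in GFP-negative cells, a difference of −0.74 log2. Both were lower in GFP-positive cells by nearly the same amount, and 97.9% of genes with several probe sets had a gap at least as wide as theirs, 0.02 log2. Whether the higher 3′ to 5′ ratio of the GFP-positive array had a part in the Ptpn11 difference was not tested. The third probe set, 1421196_at, was below the floor with 14.7 in GFP-positive cells against 13.4 in GFP-negative cells.

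Set against the whole array, 10.5% of probe sets above the floor on at least 1 array differed at least as much, in either direction, as the brighter Ptpn11 probe set. Among the 2221 probe sets with a geometric mean signal of at least 1000, 3.96% were past 1.5-fold, and 1.44% differed at least as much as this one. It was the only one of the 7 phosphatase probe sets that bright to be past 1.5-fold. The Ptpn11 difference lay between −0.77 and −0.71 log2 on both probe sets under quantile normalization, loess and median centring. Averaging all Ptpn11 probe sets, the one below the floor included, gave −0.45 log2, which is under 1.5-fold.

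For Ptpn6 the probe set 1460188_at gave 836.9 in GFP-positive cells against 1006 in GFP-negative cells, a difference of −0.27 log2. The probe set 1456694_x_at gave 524.2 in GFP-positive cells against 296.7 in GFP-negative cells, a difference of 0.82 log2 or 1.77-fold higher. The suffix _x_at marks probes that can match other transcripts too, so this signal may not be that of Ptpn6 alone. The gap of 1.09 log2 was reached by 10.2% of genes with several probe sets. With both probe sets averaged, the Ptpn6 difference was 0.28 log2, so its sign depends on how the gene is summarised.

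**Figure D2:**
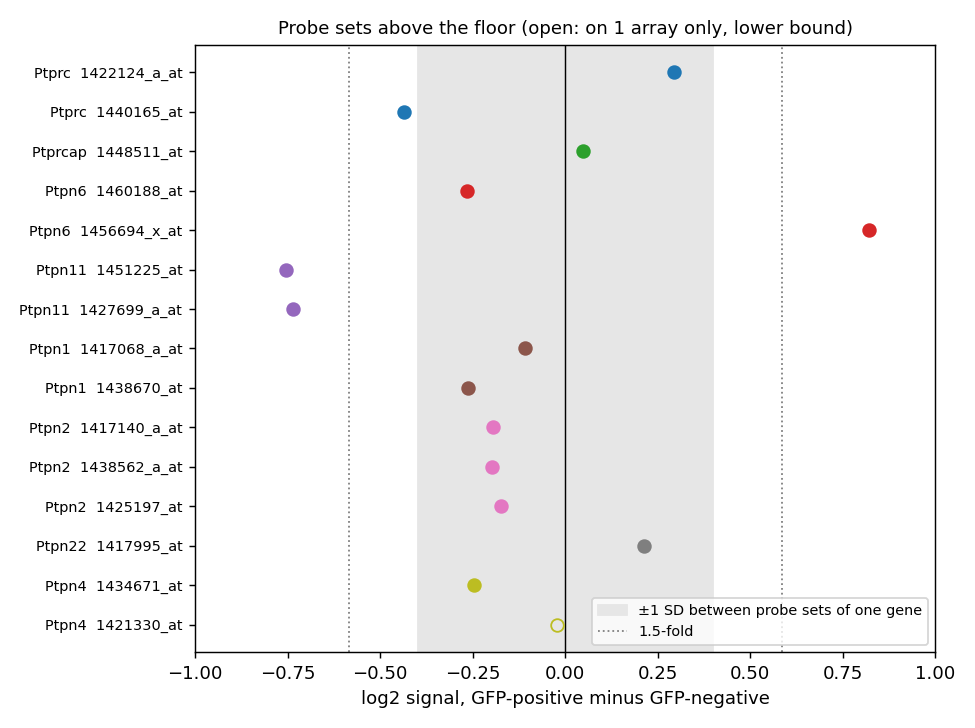
Difference in log2 signal, GFP-positive minus GFP-negative, of the 15 phosphatase probe sets above the floor, coloured by gene, with the scatter between probe sets of 1 gene (±0.40 log2) in grey and 1.5-fold dotted. The open point, of Ptpn4, is a lower bound. The Ptpn11 probe sets lie together left of the dotted line, 1 Ptpn6 probe set lies right of it, and the Ptpn2 probe sets nearly coincide.

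Ptpn1 and Ptpn2 encode the closely related phosphatases PTP1B and TC-PTP, which act on JAK kinases, and TC-PTP also on STAT proteins and Src family kinases. The probe set 1417068_a_at of Ptpn1 gave 2856 in GFP-positive cells against 3078 in GFP-negative cells, and 1438670_at gave 525.2 in GFP-positive cells against 629.6 in GFP-negative cells. These differences of −0.11 and −0.26 log2 have 1 sign. For Ptpn2 the probe set 1417140_a_at gave 1370 in GFP-positive cells against 1567 in GFP-negative cells. The probe set 1438562_a_at gave 1130 in GFP-positive cells against 1295 in GFP-negative cells, and 1425197_at gave 126.9 in GFP-positive cells against 143.1 in GFP-negative cells. The Ptpn2 differences of −0.19, −0.20 and −0.17 log2 spanned only 0.02 log2 between the lowest and the highest, and each was less than the yardstick scatter. The fourth Ptpn2 probe set, 1425198_at, was below the floor with 31.5 in GFP-positive cells against 44.2 in GFP-negative cells. For these 2 genes every probe set above the floor was lower in GFP-positive cells, by 1.08-fold to 1.20-fold.

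Ptpn22 encodes a phosphatase that restrains Lck, Fyn and ZAP-70 and works together with the kinase CSK. Its single probe set, 1417995_at, gave 972.6 in GFP-positive cells against 839.7 in GFP-negative cells, a difference of 0.21 log2 or 1.16-fold higher. Ptpn4 encodes a phosphatase with FERM and PDZ domains. Its probe set 1434671_at gave 198.7 in GFP-positive cells against 235.9 in GFP-negative cells, a difference of −0.25 log2. Its other probe set, 1421330_at, gave 9.8 in GFP-positive cells against 61.9 in GFP-negative cells, just above the floor on 1 array, so that it was at least 1.02-fold lower in GFP-positive cells. That probe set is the one just inside the floor, and the next one outside it is the Ptpn2 probe set at 44.2. The single Ptpn22 probe set and the brighter Ptpn4 probe set were each within the yardstick scatter.

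None of the 15 probe sets had another sign after quantile normalization, loess or median centring. Some members were among the brightest probe sets of the array. The brighter Ptprc probe set exceeded 99.6% of all probe sets for GFP-positive against 99.5% for GFP-negative cells, and the bright Ptpn11 probe set 96.2% for GFP-positive against 97.9% for GFP-negative cells. Signals of different probe sets cannot be set against each other as amounts of RNA.

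**Figure D3:**
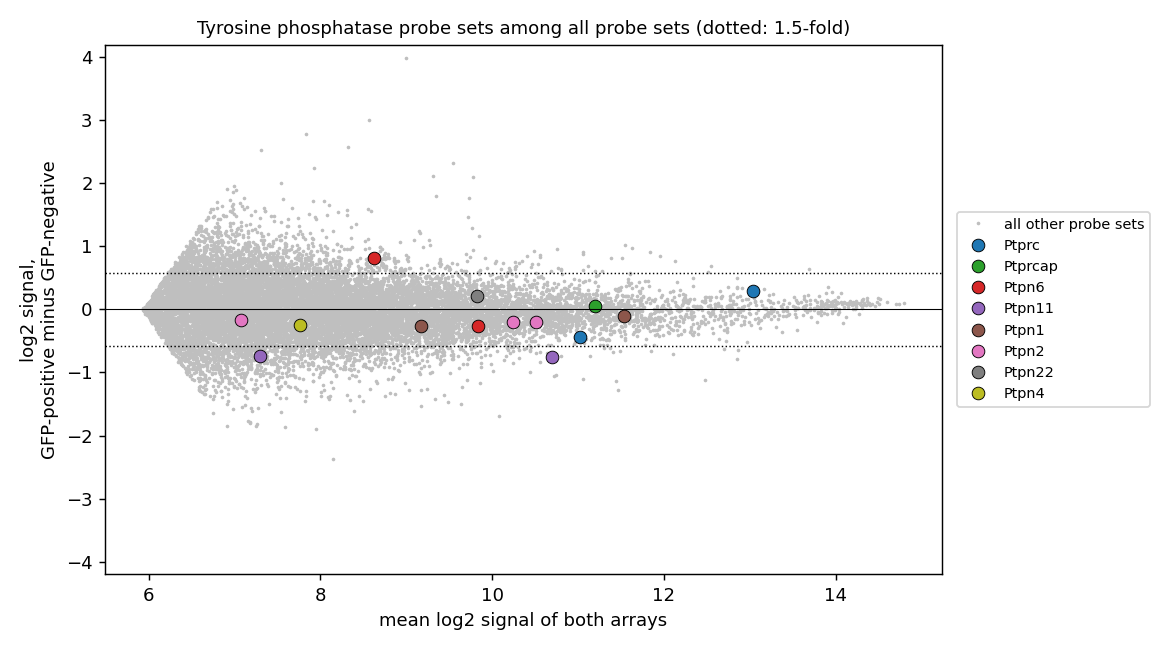
Difference in log2 signal, GFP-positive minus GFP-negative, against the mean log2 signal of both arrays, for the 15536 probe sets above the floor on both arrays (grey) and the 14 phosphatase probe sets among them (coloured by gene), with 1.5-fold dotted. The scatter narrows with signal, and the bright Ptpn11 probe set lies at the lower edge of the cloud.

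The sequence before the transcription start differed in base composition between Ptprc, the member with the highest signals, and Ptpn11, the member whose probe sets agreed on the largest difference. The 250 bases before a RefSeq start (build GRCm38.p6) are shown for both, with the cytosine-guanine pairs (CpG) in capitals, at chr1:138175306-138175555 for Ptprc and chr5:121191398-121191647 for Ptpn11, both on the minus strand.
Ptprc: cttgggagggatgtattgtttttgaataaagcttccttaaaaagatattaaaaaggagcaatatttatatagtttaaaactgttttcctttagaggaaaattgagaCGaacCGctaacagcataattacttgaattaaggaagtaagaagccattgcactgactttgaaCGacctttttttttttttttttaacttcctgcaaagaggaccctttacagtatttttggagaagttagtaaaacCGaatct
Ptpn11: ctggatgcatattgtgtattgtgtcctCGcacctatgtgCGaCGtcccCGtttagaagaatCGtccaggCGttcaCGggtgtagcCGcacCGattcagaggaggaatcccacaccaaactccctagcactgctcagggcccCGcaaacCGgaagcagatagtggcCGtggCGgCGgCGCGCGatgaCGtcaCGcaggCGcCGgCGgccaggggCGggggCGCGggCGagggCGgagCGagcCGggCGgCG
The Ptprc stretch holds 4 CpG pairs and the Ptpn11 stretch 31, against a median of 6 over the 32851 promoters of the table.

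The table holds 12 starts of 8 of the 10 genes, all but Ptpn2 and Ptprcap. Ptpn1 had 41 CpG pairs and Ptpn4 36, next to Ptpn11 among the CpG-rich stretches. Ptpn22 had 5 and 2 at its 2 starts, and the other start of Ptprc had 2. Ptpn6 had 7, near the median of the table. Ptpn7 had 9 and 6, and the 2 starts of Ptprj had 3 and 34. Fixed motifs were searched on both strands. The forkhead motif GTAAACA, of the factor family of Foxp3, and the ETS motif CCGGAAGT were in none of the 12 stretches, against 3.17% and 2.88% of all promoters. The cAMP response element TGACGTCA was in that of Ptpn11 only, against 1.55% of all promoters. These are matches of letters and say nothing of binding.

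Other tyrosine phosphatases, taken from fixed lists with each gene at its brightest probe set, differed about as little. Of 19 other receptor type phosphatases 16 had a probe set. Above the floor were 9, of which 4 were higher and 5 lower in GFP-positive cells, with a median of −0.05 log2 and 1 past 1.5-fold. Over all 10452 genes above the floor, 16.9% were past 1.5-fold and the median was −0.01. Ptprk, which is needed for CD4 T cell development in rats, was at least 2.26-fold lower (57.3 in GFP-positive cells against 137.9 in GFP-negative cells), but its other probe sets above the floor went both ways, with −0.17 log2 as a lower bound and 0.12 log2. Ptprf was at least 1.39-fold lower, Ptprs 1.22-fold higher, and Ptpra and Ptpre, both widely expressed, were 1.19-fold and 1.14-fold lower.

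Of 16 other non-receptor and related phosphatases 15 had a probe set. Above the floor were 12, of which 7 were higher and 5 lower in GFP-positive cells. By their brightest probe sets none was past 1.5-fold, against 16.9% of all genes above the floor. Other probe sets of Acp1, Ptpn12 and Ptpn13 did pass it. Acp1 was 1.07-fold higher by its brightest probe set, and its 3 others were higher by 0.02 to 0.60 log2. Their median of 0.07 log2 became −0.02 with the floor doubled. Ptpn9 had 208.9 in GFP-positive cells against 141.3 in GFP-negative cells (1.48-fold higher). Ptpn13, a large FERM and PDZ domain phosphatase, had 366.0 in GFP-positive cells against 254.9 in GFP-negative cells (1.44-fold higher), and its other probe set was higher too, by 0.72 log2. Ptpn12, which encodes PTP-PEST, was 1.44-fold higher, with further probe sets from −0.71 to 0.48 log2, and Ptpn3 was 1.41-fold lower. The brightest, Ptp4a2 and Ptpn18, were 1.06-fold and 1.12-fold lower.

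Of 17 listed kinases and substrates on which these phosphatases act, 13 had a probe set, all of them above the floor. Lck was not among these 13. They counted 3 higher and 10 lower genes, with a median of −0.17 log2 that was −0.02 with probe sets averaged. Past 1.5-fold were 2 of the 13, both lower, against 16.9% of all genes above the floor. Cd247, whose product is the zeta chain of the receptor complex, was 1.97-fold lower (735.0 in GFP-positive cells against 1445 in GFP-negative cells), but its other probe set above the floor was higher by 1.09 log2. Pag1, the membrane adaptor that holds CSK, was 1.54-fold lower, with its other probe sets of both signs. Stat5b, a TC-PTP substrate that carries IL-2 signals, had 335.6 in GFP-positive cells against 225.9 in GFP-negative cells (1.49-fold higher), and its other probe set was higher by at least 0.41 log2. Stat5a, in the same list, was 1.24-fold lower. Jak3, a kinase downstream of IL-2, was 1.47-fold higher. Lat and Jak1, the brightest, were 1.19-fold and 1.14-fold lower.

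Of 20 listed receptors and adaptors that recruit SHP-1, SHP-2 or PTPN22 or join the same complexes, 19 had a probe set. Above the floor were 16, of which 5 were higher and 11 lower. Their median of −0.27 log2 was −0.09 with probe sets averaged. Past 1.5-fold were 6 of the 16, 4 lower and 2 higher, against 16.9% of all genes above the floor. Pdcd1, the gene of PD-1, an inhibitory receptor that recruits SHP-2, was 2.09-fold lower (236.8 in GFP-positive cells against 494.2 in GFP-negative cells). Sh2d1a, which encodes the adaptor SAP, a competitor of SHP-1 and SHP-2 at SLAM receptors, was 1.76-fold lower (252.4 in GFP-positive cells against 444.0 in GFP-negative cells). Cd22 was 2.39-fold lower and is also a B cell marker. The B cell markers above the floor went both ways, and their part in the Cd22 value was not tested. Lair1, an inhibitory receptor that binds SHP-1, was at least 1.99-fold higher, and its other 2 probe sets, also above the floor on the GFP-positive array alone, were higher by at least 0.26 and 0.30 log2. Sla and Skap1, the brightest, were 1.34-fold and 1.12-fold lower.

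Of 7 listed regulators of CD45 splicing, 6 had a probe set and 5 were above the floor. These 5 counted 3 higher and 2 lower genes, with a median of 0.02 log2. None was past 1.5-fold, against 16.9% of all genes above the floor. Hnrnpll, which drives the switch of CD45 to its short form in activated T cells, had 1847 in GFP-positive cells against 2022 in GFP-negative cells, and its other probe set differed by 0.18 log2 in the other direction. Sfpq was 1.23-fold lower, with other probe sets from −0.94 to 0.39 log2, Srsf3 1.17-fold and Ptbp1 1.11-fold higher. By their brightest probe sets these regulators differed by less than the yardstick scatter.

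**Figure D4:**
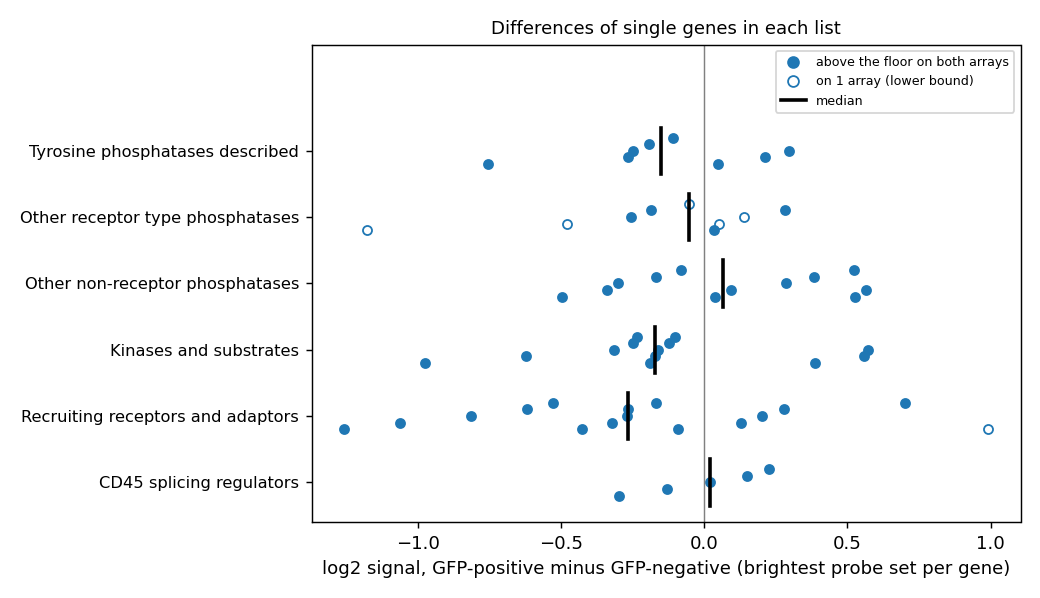
Difference in log2 signal, GFP-positive minus GFP-negative, of each gene above the floor in 6 lists, by its brightest probe set, with filled points above the floor on both arrays, open points on 1 array (lower bounds) and the list median as a bar. Medians lie between −0.27 and 0.07 log2, and Ptpn11 is the leftmost of the 8 points in the top row.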

How the data were processed

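RNA of sorted CD4+ T cells (6 µg per sample) was labelled and hybridised to 1 array per population, per the labels' protocols. Each deposited value is a MAS5 intensity of 1 probe set on 1 array, as named in the submitters' processing notes. No source used here states the software version, background settings or detection calls. The 2% trimmed mean was 150.0 on both arrays, so they had been scaled before deposit, and no further scaling was applied.

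Of 45101 probe sets 34958 had 1 gene symbol in the platform annotation, 932 several and 9211 none. Symbols were checked through gene identifiers (34754 matched), which altered 0. The 64 control probe sets were left out. The floor came from 112 probe sets of 62 of 69 listed tissue-restricted genes, of which 17 exceeded it on an array. Lower signals were set to the floor before the log2 step, and a fold from 1 signal above it is a lower bound. Folds of 1.5 and 2 were counted. The number of arrays limits the precision.

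All members were named, with Foxp3 and, from each list, up to 4 genes with the largest difference and the 2 brightest. For the lists of cell type markers only some of these are printed. Dok1 and Grb2, also past 1.5-fold, fell outside this rule. Stat5a fell outside it too and is given beside Stat5b, and Acp1 is given for its other probe sets. Members and lists were chosen with earlier results of these data known. Alternatives were quantile normalization, loess (span 0.3), median centring, the floor doubled or absent, probe sets averaged, and the _x_at and _s_at probe sets left out. The steps were tested on simulated data, with Python 3.11.15, pandas 2.3.3, numpy 2.4.6 and statsmodels 0.14.6. The planted differences exceeded every phosphatase difference measured with the floor, and the simulated scatter was below the yardstick. The simulation therefore says nothing of differences as small as those reported.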

Additional observations from a re-analysis of the deposited data

How the results depend on the processing

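The count of phosphatase probe sets past 1.5-fold was 3 of 15 under quantile normalization, loess and median centring. The share of all probe sets was 19.6%, 19.1% and 19.1% in these settings. With the floor doubled it was 3 of 14, against 11.9% of all, so the phosphatase share was then above that of the array. The count was 2 once the _x_at and _s_at probe sets were left out. Without a floor it was 6 of 21, against 54.2% of all, because signals near background then count. Past 2-fold were then 3 of 21, against 38.6% of all. The 1421330_at difference of Ptpn4 was then −2.66 log2, and with probe sets averaged Ptpn4 was at −0.99 and Ptpn6 at 0.28. The median of the member probe sets lay between −0.20 and −0.14 over these settings, and that of the member genes was −0.15, or −0.13 with probe sets averaged. For the lists of other genes, alternatives chosen after seeing the data, the B cell marker median of −1.02 was 0.56 with probe sets averaged. Without a floor the medians of myeloid and dendritic markers (0.09) and of CD8 and NK markers (0.21) were −0.40 and −0.35. No paired analysis was possible because each population has 1 array, and no replicate could be left out. Signal over background limits Ptprj, which no setting with a floor could measure.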
